A study of Mus musculus with 6 samples.

Results

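Adherens junctions and desmosomes hold the cells of the intestinal epithelium to one another, and 10 of their genes were examined here: the cadherins Cdh1 and Cdh17, the desmosomal cadherins Dsg2 and Dsc2, the catenins Ctnnd1 and Jup, the plakophilins Pkp2 and Pkp3, the desmosomal plaque protein gene Dsp, and Perp. They were taken by symbol from the 24594 rows of the count table, and all 10 were found and passed the low-count filter that left 12592 genes. The libraries come from cultured organoids of mouse small intestine, grown from single cells for 96 h and then kept for 24 h with the LATS kinase inhibitor NIBR-LTSi at 5 uM (3 libraries) or with an equivalent amount of the solvent DMSO (3 libraries). LATS kinases restrain the co-activators YAP and TAZ in the Hippo pathway, which senses cell contact among other inputs. The labels give no strain, age or sex and do not say how many animals or organoid lines were used, nor whether the replicates are separate cultures. The p-values below therefore describe the spread between these libraries, which could be purely technical.

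Classical cadherins such as E-cadherin bind the same cadherin on the neighbouring cell in a calcium-dependent way, and their tails are linked to actin through beta-catenin and alpha-catenin, while p120-catenin holds the cadherin at the surface. In desmosomes, desmogleins and desmocollins take the place of the classical cadherins, plakoglobin and plakophilins bind their tails, and desmoplakin ties the plaque to keratin filaments. Simple epithelia such as the gut rely on Dsg2 and Dsc2, whereas the other desmogleins and desmocollins belong mainly to stratified epithelia. Cdh17, or LI-cadherin, has a short tail that does not bind catenins and is abundant on the lateral membrane of enterocytes.

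Upstream sequences are shown for the 3 of the 10 genes that have an entry in the RefSeq promoter table of build GRCm38.p6: Jup, Dsp and Ctnnd1. Each line runs 5′ to 3′ on the gene's strand and holds the bases before the annotated start that lie outside the gene and outside annotated UTRs, so that the genes that bind cadherin tails or anchor keratins can be compared by base composition and common boxes. Capitals mark CCAAT (the box bound by NF-Y) and GGGCGG (the GC box bound by SP and KLF proteins), on either strand.
Jup (chr11:100397840-100398040, minus strand): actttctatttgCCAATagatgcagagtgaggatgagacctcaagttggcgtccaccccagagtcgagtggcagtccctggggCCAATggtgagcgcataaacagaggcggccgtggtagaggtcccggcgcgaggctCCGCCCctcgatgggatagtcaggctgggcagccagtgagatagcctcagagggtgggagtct
Dsp (chr13:38151044-38151293, plus strand): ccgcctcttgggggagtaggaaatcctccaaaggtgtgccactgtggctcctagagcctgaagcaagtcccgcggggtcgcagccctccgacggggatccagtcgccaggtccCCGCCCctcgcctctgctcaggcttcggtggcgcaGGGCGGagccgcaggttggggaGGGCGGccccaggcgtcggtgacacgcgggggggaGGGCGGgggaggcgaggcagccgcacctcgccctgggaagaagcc
Ctnnd1 (chr2:84658978-84659227, minus strand): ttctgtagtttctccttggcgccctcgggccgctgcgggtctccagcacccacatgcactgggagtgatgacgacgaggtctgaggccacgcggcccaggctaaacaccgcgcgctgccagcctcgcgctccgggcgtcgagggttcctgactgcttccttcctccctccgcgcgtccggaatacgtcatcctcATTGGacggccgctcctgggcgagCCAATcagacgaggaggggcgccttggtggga
The entries for Cdh1, Cdh17, Dsg2, Dsc2, Pkp2, Pkp3 and Perp are missing from the table. In the full 250 bases before the start, Jup holds 2 CCAAT boxes and 2 GC boxes, Dsp holds 4 GC boxes and no CCAAT box, and Ctnnd1 holds 2 CCAAT boxes and no GC box. Of 32851 windows of that length, 33.8% hold CCAAT and 32.7% hold GGGCGG. The TEAD core GGAATG (12.6% of windows), the E-box CAGGTG that SNAI and ZEB proteins bind (17.2%), the AP-1 site TGANTCA (6.75%) and the grainyhead-like core AACNNGTT (3.64%) were searched on both strands and were found in none of the windows of these 3 genes. These letters are absent from these windows only, and nothing follows for the factors. G and C make up 62% of the window for Jup, 72.4% for Dsp and 66.8% for Ctnnd1, where the median window has 52.4%. Ctnnd1 has a second entry, at a start inside the gene (chr2:84650741-84650990), which is not shown because it lies within the gene; it has 40% G and C, 2 CCAAT boxes and none of the other motifs.

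With NIBR-LTSi, Cdh17, Dsc2 and Ctnnd1 rose, Pkp3 fell, and the other 6 genes did not pass the test (edgeR quasi-likelihood test, Benjamini-Hochberg adjusted p under 0.05 over all 12592 genes). All the differences were small: the fitted change ran from 0.919-fold for Pkp3 to 1.15-fold for Dsc2, and none of the 10 genes reached 1.5-fold. Over all tested genes 42.0% were called, 22.8% higher and 19.2% lower, and 10.9% were both called and changed at least 1.5-fold. The share of called genes among the 10 (4 of 10) is therefore near the background. Their median log2 fold change was 0.11 against 0.02 over all tested genes, and their median absolute log2 fold change was 0.12 against 0.19. The median of the 10 was 0.06 without DMSO replicate 2 or without NIBR-LTSi replicate 1, and 0.05 with an adjustment for gene width. The libraries of the groups did not overlap in 7 of the 10 genes, against 52.5% of all tested genes.

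These calls rest on few libraries. Without DMSO replicate 1 or without NIBR-LTSi replicate 2 only 1 of the 10 genes was called higher, without NIBR-LTSi replicate 1 or 3 there were 2, and without DMSO replicate 3 there were 6. The single fall was lost without DMSO replicate 1, NIBR-LTSi replicate 2 or NIBR-LTSi replicate 3, and 2 genes were called lower without NIBR-LTSi replicate 1. Scaling by library totals alone gave 5 higher and 0 lower (0 lower also at an unadjusted p under 0.05), DESeq2 size factors gave 3 higher and 2 lower, and an adjustment for gene width gave 2 higher and 2 lower. The DESeq2 test gave 3 higher and 1 lower and limma-voom 4 higher and 1 lower.

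**Figure D1:**
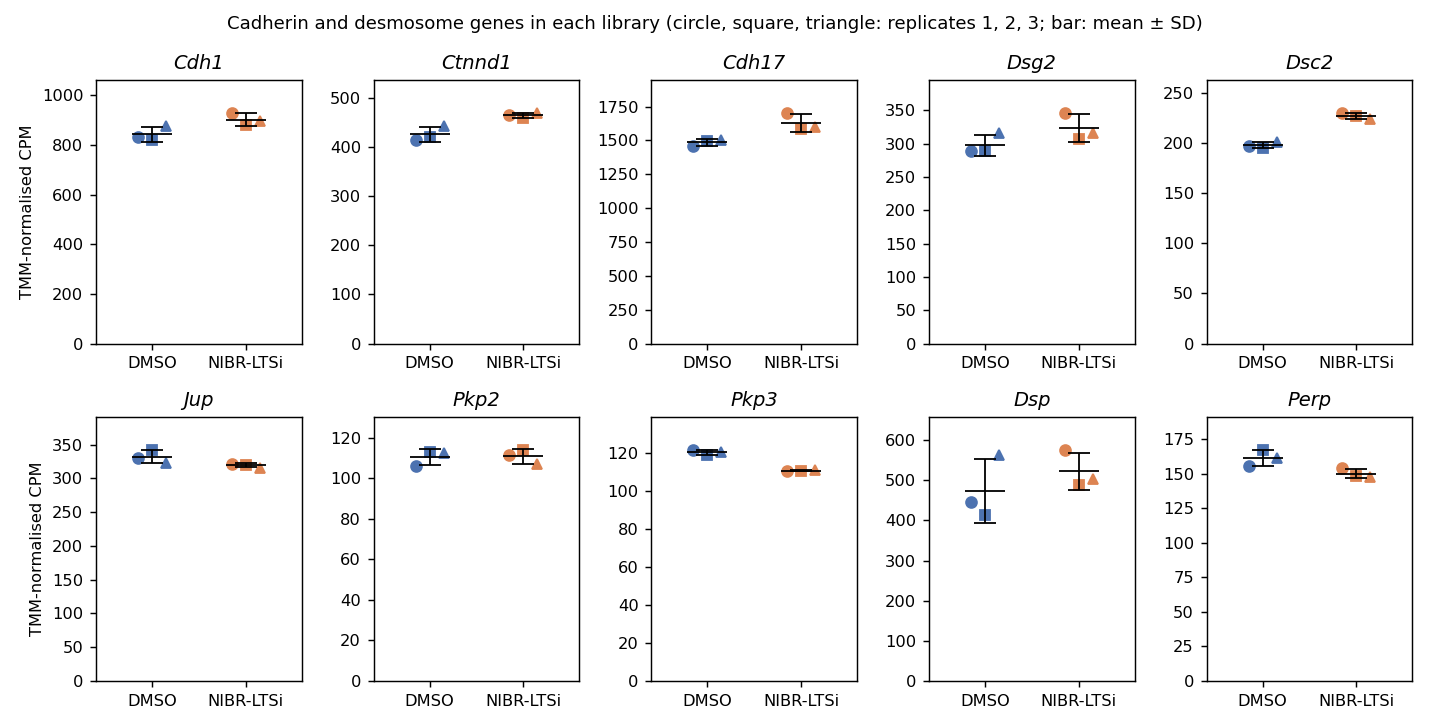
TMM-normalised CPM (y axis, from 0) of the 10 genes in each of the 6 libraries, with DMSO in blue, NIBR-LTSi in orange, the replicate number as the marker shape and the mean ± SD in black. All differences are small beside the level of the gene: the largest fitted change is that of Dsc2, whose mean went from 198 to 227 CPM, and relative to its mean Dsp has the widest spread within a group, from 413 to 563 CPM in DMSO.

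The depth behind these values was 18395427 to 26767043 counts per library, and levels are given as CPM (counts scaled to a common library size with TMM factors). Along the first principal component (51.3% of the variance) treated and control libraries were apart, and along the second (31.2%) NIBR-LTSi replicate 1 lay farthest out. All 9 epithelial markers were expressed (3 higher, 3 lower, sum 8604 to 8878 CPM with DMSO and 9246 to 9838 CPM with NIBR-LTSi), among them Epcam at 1152 ± 59 and 1129 ± 26 CPM (SD, n = 3). Of 14 mesenchymal markers 5 had no count in any library and 12 stayed under a mean of 1 CPM; their sum was 9.09 to 10.7 CPM with DMSO and 7.02 to 7.77 CPM with NIBR-LTSi. Of 10 immune markers 8 stayed under a mean of 1 CPM. The others were Itgam at 7.88 and 9.14 CPM and Csf1r at 1.72 and 2.23 CPM (means with DMSO and with NIBR-LTSi). The sum of all 10 was 10.4 to 10.8 CPM with DMSO and 11.6 to 12.3 CPM with NIBR-LTSi. All 6 endothelial markers stayed under a mean of 1 CPM (sum 0.897 to 0.944 and 0.723 to 0.804 CPM), and Cdh5, Kdr and Cldn5 had no count. In these bulk libraries a smaller share of a cell type and less RNA per cell cannot be told apart. Against 42.0% of all genes called, proliferation markers were higher with the treatment (12 of 13, sum 568 to 597 CPM with DMSO and 904 to 979.5 CPM with NIBR-LTSi). Enterocyte markers changed in both directions (5 of 12 higher and 5 lower, sum 41462 to 42556 and 36299 to 38896 CPM). The summed level of secretory markers overlapped between the groups (2 of 13 higher and 5 lower, sum 3197 to 3562 and 3294 to 3626 CPM). The part of these markers in the changes of the junction genes was not tested.

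Levels of different genes are comparable only per length, here as CPM per kilobase of the width deposited with each gene. On this scale the order with DMSO was Cdh17 (332 ± 5.5, SD, n = 3), Cdh1 (184 ± 6.5), Perp (82.8 ± 2.9), Ctnnd1 (56.2 ± 1.9), Jup (51.6 ± 1.5), Dsp (49.0 ± 8.2), Dsc2 (37.6 ± 0.62), Dsg2 (36.0 ± 1.9), Pkp3 (33.2 ± 0.33) and Pkp2 (20.6 ± 0.74). Among neighbours in this order, Jup and Dsp overlapped between libraries and so did Dsc2 and Dsg2, while every other neighbouring pair was separated in all 3 DMSO libraries. With NIBR-LTSi, Dsp (54.1 ± 4.8) stood above Jup (49.6 ± 0.48), the other ranks stayed as they were, and no neighbouring pair overlapped. The 2 cadherins of the lateral membrane were thus far above the desmosomal genes: Cdh17 ranked 133 and Cdh1 ranked 274 of the 12592 tested genes with DMSO, and Pkp2, the lowest of the 10, ranked 2675.

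**Figure D2:**
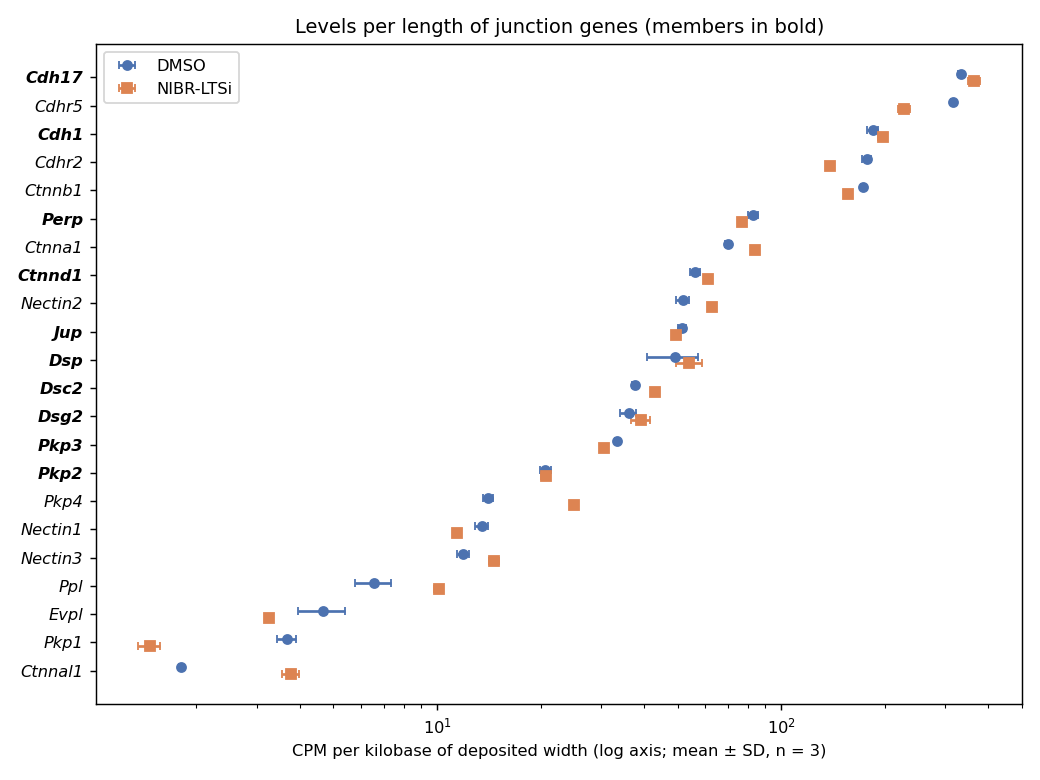
Levels per length (x axis, log scale, CPM per kilobase of deposited width, mean ± SD, n = 3 per group) of the 10 genes, in bold, and 12 related genes, with DMSO as blue circles and NIBR-LTSi as orange squares. Cdh17 at 332 and Cdh1 at 184 are the highest of the 10 with DMSO, and the gap between groups is wider for Pkp1, Pkp4 and Ctnnal1 than for any of the 10.

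Cdh17 (Entrez 12557; chromosome 4, 11758157 to 11817905, plus strand) had 1459, 1495 and 1507 CPM in the DMSO libraries and 1704, 1585 and 1598 CPM in the NIBR-LTSi libraries, in the order of their replicate numbers (as in all that follows). All treated libraries were above all control libraries, and NIBR-LTSi replicate 1 was the highest. Cdh17 rose by 9.57%, a log2 fold change of 0.13 ± 0.04 (SE; edgeR adjusted p = 0.0124). Leaving out DMSO replicate 1, NIBR-LTSi replicate 1 or NIBR-LTSi replicate 2 ended the call (adjusted p = 0.0712, 0.0651 and 0.0507).

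Cdh1, which encodes E-cadherin (Entrez 12550; chromosome 8, 106603350 to 106670247, plus strand), had 834, 819 and 876 CPM with DMSO and 930.5, 879 and 897 CPM with NIBR-LTSi. The groups did not overlap, but the gap between DMSO replicate 3 and NIBR-LTSi replicate 2 was narrow. On the log2 scale the difference was 0.10 ± 0.04 (SE; adjusted p = 0.0559, not called), with a 95% interval of 1.01-fold to 1.13-fold. This interval leaves out a change of 1.5-fold. It passed the threshold with library totals (adjusted p = 0.00607), upper-quartile factors (0.0358), no low-count filter (0.0420), limma-voom (0.0484) and without DMSO replicate 3 (0.0213), and over all alternatives the adjusted p ran from 0.00607 to 0.218. The ratio of Cdh17 to Cdh1 per length was 1.80 ± 0.06 with DMSO and 1.85 ± 0.03 with NIBR-LTSi (SD, n = 3), with overlapping libraries.

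Ctnnd1 (Entrez 12388; chromosome 2, 84587096 to 84658977, minus strand), the gene of p120-catenin, which binds the E-cadherin tail and keeps the cadherin at the surface, had 415, 419.8 and 442 CPM with DMSO and 465, 459.7 and 470.0 CPM with NIBR-LTSi. Every treated library was above every control library. Ctnnd1 rose by 0.13 ± 0.04 on the log2 scale (SE; adjusted p = 0.0136). Leaving out DMSO replicate 1, NIBR-LTSi replicate 2 or NIBR-LTSi replicate 3 ended the call (adjusted p = 0.0803, 0.0695 and 0.0787), and so did an adjustment for gene width, under which the log2 fold change was 0.06 (adjusted p = 0.18). The annotation places a second protein-coding locus, Gm28635, over 4482 exonic bases of Ctnnd1 on the same strand, and it has no row of its own in the table.

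Dsc2 and Dsg2 are the desmosomal cadherins of simple epithelia and lie near each other on chromosome 18. Dsc2 (Entrez 13506; 20030633 to 20059554, minus strand) had 197, 195 and 202 CPM with DMSO and 230.5, 227 and 224 CPM with NIBR-LTSi. Replicates lay close together and the groups were clearly apart. Its rise of 0.20 ± 0.04 on the log2 scale (SE; adjusted p = 8.73e-04) was the largest change of the 10 genes, and it was the only one of the 4 called genes whose call held in all 15 alternatives (adjusted p from 1.66e-04 to 0.0131). Even so, 48.8% of all tested genes changed by at least as much.

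Dsg2 (Entrez 13511; chromosome 18, 20558074 to 20604526, plus strand) had 288, 289 and 316 CPM with DMSO and 346, 307 and 316 CPM with NIBR-LTSi. DMSO replicate 3 lay within the treated range, so the groups overlapped. The difference was 0.12 ± 0.05 on the log2 scale (SE, edgeR adjusted p = 0.0898, not called). The 95% interval ran from 0.004 to 0.233 on that scale, so its lower end was just above no change. It was called without DMSO replicate 3 (adjusted p = 0.0235) and with library totals (0.0193), while it was 0.04 with the width adjustment (0.5) and 0.06 without NIBR-LTSi replicate 1 (0.361). Gm16090, an antisense gene that shares 330 exonic bases with Dsg2, was at 0.332 and 0.287 CPM. The ratio of Dsc2 to Dsg2 per length was 1.04 ± 0.04 with DMSO and 1.10 ± 0.06 with NIBR-LTSi (SD, n = 3), and the libraries overlapped.

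Among the armadillo-repeat proteins of the desmosome, Jup (Entrez 16480; chromosome 11, 100368856 to 100397839, minus strand), which encodes plakoglobin, had 331, 342 and 323 CPM with DMSO and 322, 320.0 and 316 CPM with NIBR-LTSi. All treated libraries were below all control libraries by a small margin. Its log2 fold change was -0.06 ± 0.04 (SE; adjusted p = 0.239, not called), and the 95% interval of 0.912-fold to 1.02-fold includes no change. After the width adjustment it was called lower (log2 fold change -0.11, adjusted p = 0.0391), and it was -0.01 with library totals (0.823) and -0.03 without DMSO replicate 2 (0.473).

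Pkp3 (Entrez 56460; chromosome 7, 141078229 to 141090511, plus strand), a plakophilin of desmosomes in simple and stratified epithelia, had 121, 119 and 120.2 CPM with DMSO and 110.4, 110.3 and 110.7 CPM with NIBR-LTSi. The treated libraries were almost identical and all lay below the controls. Pkp3 fell by 0.12 on the log2 scale (SE 0.04; adjusted p = 0.0223), or by 8.09%. Leaving out DMSO replicate 1, NIBR-LTSi replicate 2 or NIBR-LTSi replicate 3 ended the call (adjusted p = 0.0853, 0.0654 and 0.0566), and so did scaling by library totals (log2 fold change -0.08, adjusted p = 0.121).

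Pkp2 (Entrez 67451; chromosome 16, 16213345 to 16272712, plus strand), the plakophilin of simple epithelia and heart, had 106, 113 and 112.5 CPM with DMSO and 112, 114 and 107 CPM with NIBR-LTSi. The groups overlapped almost completely. The log2 fold change was 0.00 ± 0.04 (SE; adjusted p = 0.963, not called), and the 95% interval ran from 0.936-fold to 1.07-fold. The sign was negative in 6 of the 15 alternatives, among them DESeq2 size factors (-0.01), so no direction is given.

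Dsp (Entrez 109620; chromosome 13, 38151294 to 38198577, plus strand) encodes desmoplakin, the link from the plaque to keratins. It had 445, 413 and 563 CPM with DMSO and 575, 489 and 504 CPM with NIBR-LTSi. DMSO replicate 3 was within the treated range. The coefficient of variation between replicates was 16.8% with DMSO and 8.81% with NIBR-LTSi, while it was at most 5.28% and 6.32% in the other 9 genes. The log2 fold change was 0.14 ± 0.14 (SE; adjusted p = 0.493, not called), and the 95% interval from 0.846-fold to 1.44-fold is the widest of the 10. Without DMSO replicate 3 it was called higher (log2 fold change 0.29, adjusted p = 0.0267), while it was 0.05 when DMSO replicate 2 was left out (adjusted p = 0.816) and 0.06 when NIBR-LTSi replicate 1 was (0.815). The annotation has another gene, Gm10129, on the opposite strand over 499 exonic bases of Dsp.

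Perp (Entrez 64058; chromosome 10, 18845071 to 18857073, plus strand), a tetraspan protein of desmosomes and a p53 target, had 156, 167 and 162 CPM with DMSO and 154, 149 and 148 CPM with NIBR-LTSi. The treated libraries were all below the controls, with a narrow gap. The log2 fold change was -0.11 ± 0.04 (SE; adjusted p = 0.0588, not called), and the 95% interval ran from 0.873-fold to 0.989-fold. It was called lower with DESeq2 size factors (adjusted p = 0.0413), when 1 CPM was required in 3 libraries (0.0488) and without NIBR-LTSi replicate 1 (0.0418). With library totals and with the width adjustment the difference was -0.06 (adjusted p = 0.22 and 0.21).

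**Figure D3:**
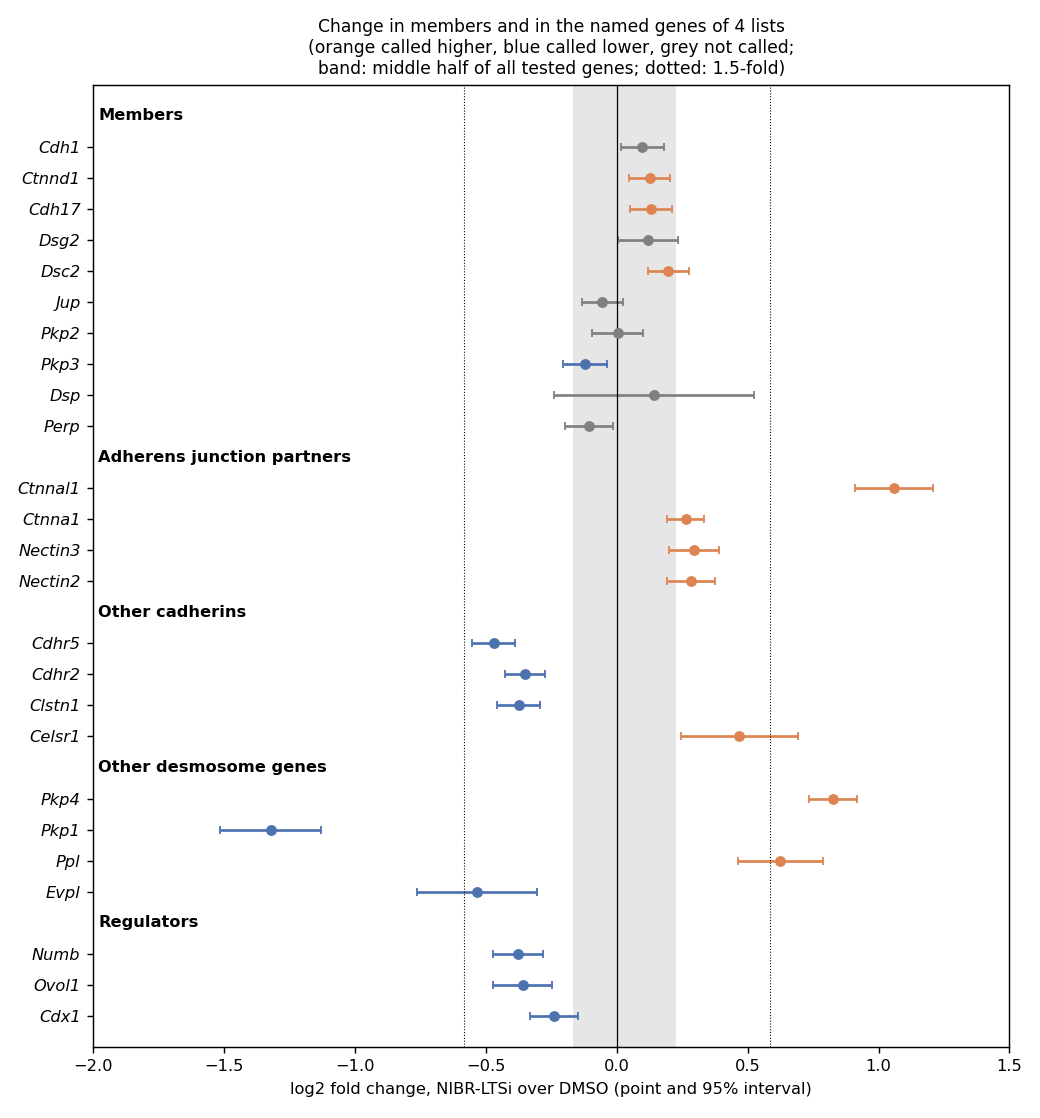
Log2 fold change, NIBR-LTSi over DMSO (x axis, point and 95% interval), of the 10 genes and of the 3 or 4 genes with the smallest p in each of 4 lists, with genes called higher in orange, called lower in blue and not called in grey. All 10 points lie inside the grey band that holds the middle of all tested genes (-0.16 to 0.22), and all of their intervals end short of the dotted lines at 1.5-fold, while Pkp1, Pkp4, Ppl and Ctnnal1 lie beyond those lines.

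Among the other desmosome genes, larger changes were seen. Of 13 genes listed, 5 passed the filter, and 3 rose and 2 fell, against 42.0% called over all genes. Pkp4, also known as p0071, a plakophilin relative found at both adherens junctions and desmosomes, had 80.0, 77.9 and 83.4 CPM with DMSO and 144, 142 and 142 CPM with NIBR-LTSi. It rose 1.77-fold (log2 fold change 0.83 ± 0.04, SE; adjusted p = 3.23e-08). Pkp1, the plakophilin of stratified epithelia, went the other way, with 19.6, 17.3 and 18.3 CPM against 6.81, 7.32 and 7.90 CPM. It fell 2.50-fold (adjusted p = 3.28e-07), and no treated library came near a control library.

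The cornified-envelope plakins periplakin and envoplakin, relatives of desmoplakin that can form a dimer, also moved in opposite directions. Ppl rose 1.54-fold, from 45.3 ± 5.4 to 69.9 ± 2.1 CPM (adjusted p = 5.83e-05), and Evpl fell 1.45-fold, from 29.8 ± 4.7 to 20.7 ± 0.34 CPM (SD, n = 3; adjusted p = 0.00201). Their groups did not overlap. The last called gene, the periplakin-binding Kazn, was at 10.3 ± 0.88 and 12.6 ± 0.68 CPM; it is named because the count is small, after its value was seen. Its call was lost in DESeq2, with the width adjustment and without DMSO replicate 1, DMSO replicate 2, NIBR-LTSi replicate 2 or NIBR-LTSi replicate 3, where 2 of the genes were called higher. The desmosomal cadherins of stratified epithelia (Dsg1a, Dsg1b, Dsg1c, Dsg3, Dsg4, Dsc1 and Dsc3) all stayed under 1 CPM and were not tested.

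The make-up of the plakophilin transcripts also differed between the groups. Per length, Pkp4 made up 19.7%, 19.2% and 20.2% of the plakophilin total with DMSO and 32.4%, 31.9% and 32.3% with NIBR-LTSi. The share of Pkp3 was 46.4% ± 0.63 and 39.3% ± 0.40 (SD, n = 3), that of Pkp2 was 28.8% ± 0.98 and 26.6% ± 0.65, and that of Pkp1 was 5.12% ± 0.33 and 1.88% ± 0.15. None of these shares overlapped between groups, and Pkp3 remained the largest share in every library. The 4 shares are parts of the same total and depend on one another, so they are not separate differences. The level of Pkp2 itself was 20.6 CPM per kilobase with DMSO and 20.7 with NIBR-LTSi. With 3 libraries against 3, the exact two-sided permutation test cannot go below p = 0.1, which it gave for each of the 4 shares (0.15 after Benjamini-Hochberg adjustment over the 9 shares and ratios computed).

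**Figure D4:**
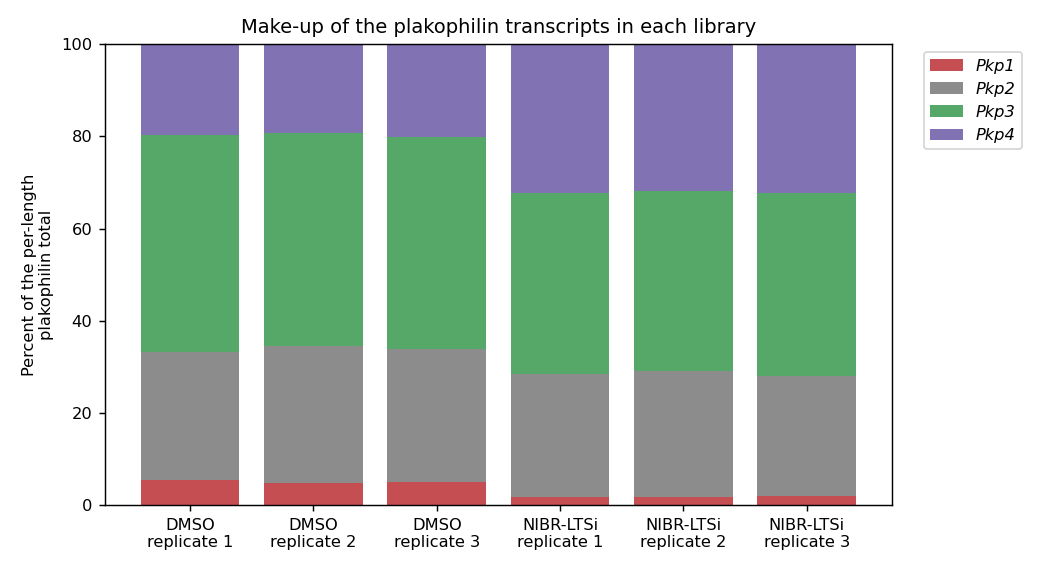
Share of each plakophilin gene (Pkp1 red, Pkp2 grey, Pkp3 green, Pkp4 violet) in the summed plakophilin level per length (y axis, percent) in each of the 6 libraries. The Pkp4 share is 19.2% to 20.2% in the DMSO libraries and 31.9% to 32.4% in the NIBR-LTSi libraries.

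Of the 16 adherens junction partners listed, 14 were tested, and 4 rose, 3 fell and 7 were not called, again against 42.0% over all genes. Ctnnal1, which encodes the alpha-catenin relative alpha-catulin, rose 2.09-fold, from 14.0, 13.6 and 13.8 CPM to 28.8, 30.4 and 27.2 CPM (log2 fold change 1.06 ± 0.07, SE; adjusted p = 2.36e-07). Ctnna1, the actin-linking alpha-catenin, rose 1.20-fold from 450.4 ± 8.1 to 541 ± 6.7 CPM (adjusted p = 5.02e-05). The nectins Nectin3 and Nectin2, immunoglobulin-like adhesion proteins that recruit cadherins through afadin, rose 1.23-fold and 1.22-fold (adjusted p = 1.98e-04 and 1.99e-04).

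The 3 that fell were Ctnnb1, Nectin1 and Lima1, named after their values were seen because the count is small. The log2 fold change was -0.24 for Nectin1 and -0.22 for Lima1 (edgeR adjusted p = 0.00151 and 4.00e-04). Ctnnb1, the gene of beta-catenin, had 869, 888 and 883 CPM with DMSO and 814, 787 and 789 CPM with NIBR-LTSi. It fell by 0.14 on the log2 scale (SE 0.03; adjusted p = 0.00355). The level of Ctnna1 relative to Ctnnb1 per length was 0.406 ± 0.007 with DMSO and 0.539 ± 0.012 with NIBR-LTSi (SD, n = 3). That of Jup relative to Ctnnb1 was 0.299 ± 0.008 and 0.318 ± 0.004. Neither ratio overlapped between groups (exact permutation p = 0.1, the smallest possible; adjusted 0.15). The ratio of Ctnnd1 to Cdh1 did overlap, at 0.305 ± 0.004 and 0.311 ± 0.008.

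Of 41 other cadherin-superfamily genes listed, 40 were in the table and 11 were tested, of which 2 rose, 4 fell and 5 were not called, against 42.0% called over all genes. The protocadherins that link the tips of microvilli in the brush border had the highest levels per length among them, and both fell. Cdhr5 had 872, 869 and 849.9 CPM with DMSO and 593, 638 and 639.9 CPM with NIBR-LTSi (fell 1.38-fold; adjusted p = 1.49e-06), and Cdhr2 had 725, 712 and 755 CPM against 585, 569.7 and 566 CPM (fell 1.27-fold; adjusted p = 8.77e-06). Calsyntenin-1, encoded by Clstn1, fell 1.30-fold (adjusted p = 9.34e-06) and the planar polarity cadherin Celsr1 rose 1.38-fold (0.00302). In 11 of the 40 no library had a count, among them Cdh2, the N-cadherin of mesenchymal and neural cells, and Cdh5 of endothelium. A count of 0 allows up to 3 counts per library, or 0.11 to 0.167 CPM, counting error alone considered.

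Known regulators of cadherin transcription and turnover were also read. Of 26 listed, 18 were tested, and 4 rose, 4 fell and 10 were not called, near the 42.0% called over all genes. Snai1, Snai2, Zeb1, Zeb2, Twist1 and Twist2, repressors of Cdh1, were all under a mean of 0.2 CPM in both groups and were not tested. The 4 that rose, named after their values were seen because the count is small, were Snai3, Hnf4a, Adam17 and Arhgap35. Snai3, a Snail-family factor, had the largest fold in the list at a very low level, with 0.200, 0.611 and 0.425 CPM against 1.19, 0.818 and 0.841 CPM (2.34-fold; adjusted p = 0.0255). Hnf4a, a nuclear receptor of intestinal epithelium, went from 965.5 ± 29.8 to 1058 ± 16.7 CPM (SD, n = 3; adjusted p = 0.00932), and the sheddase gene Adam17 and Arhgap35 rose 1.15-fold and 1.23-fold (0.0227 and 0.0151). The 3 with the smallest p all fell: the endocytic adaptor Numb by 0.38, the epithelial zinc finger factor Ovol1 by 0.36 and the caudal homeobox factor Cdx1 by 0.24 on the log2 scale (adjusted p from 3.09e-05 to 7.05e-04). Cdx2, a known activator of Cdh17, was at 162 ± 3.0 and 157 ± 3.2 CPM (SD, n = 3; adjusted p = 0.416, not called). The number that rose was 1 without DMSO replicate 1, 2 without DMSO replicate 2, 0 without NIBR-LTSi replicate 2 (3 at an unadjusted p under 0.05, edgeR) and 2 in DESeq2.

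**Figure D5:**
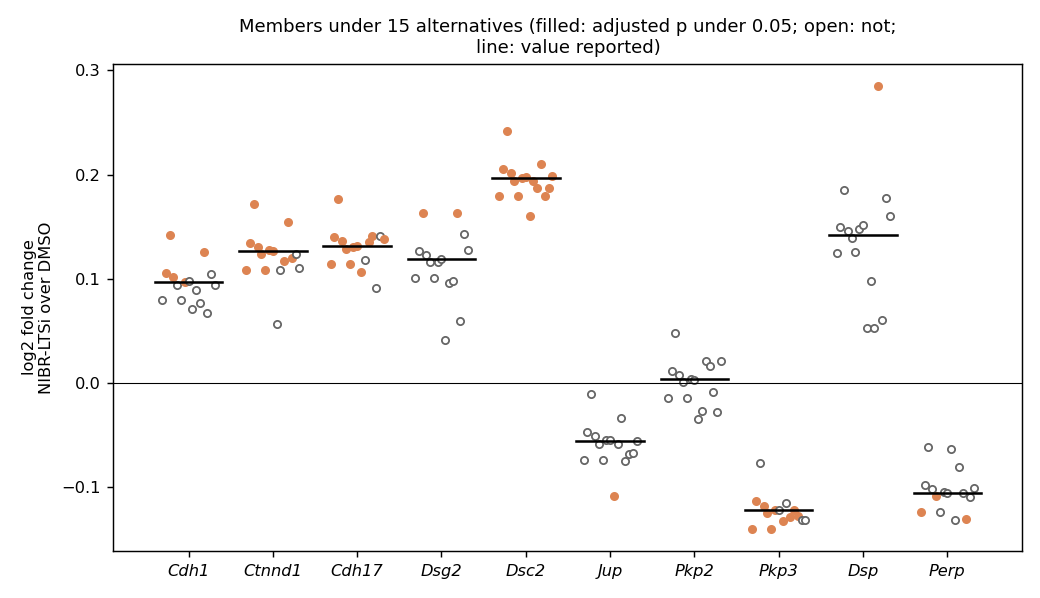
Log2 fold change, NIBR-LTSi over DMSO (y axis), of the 10 genes under 15 other ways of processing (points, filled where the adjusted p is under 0.05 and open where it is not), with the reported value as a line. Dsc2 alone is filled throughout, from 0.16 to 0.24, and Pkp2 falls on both sides of 0.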

How the data were processed

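Poly(A)-selected RNA was sequenced from 6 organoid libraries, from 200 ng of total RNA each with a stranded kit, after dissociation to single cells, per the labels' protocols. The authors deposited raw read counts per gene with a gene width. Build mm10 and edgeR are named, per the submitters' processing notes; for the aligner, counting tool and strand use, the sources used here give nothing. Replicate libraries were not duplicates (chi-square per degree of freedom 4.65 to 11.9).

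Counts were scaled by TMM, filtered with filterByExpr and tested with the edgeR 4.0.16 quasi-likelihood F-test (robust, two-sided, group as the only term, R 4.3.3). Standard errors (absolute log2 fold change over the square root of F) and the 95% intervals built from them are approximate. The procedure was tested on simulated data. Positions are from RefSeq GRCm38.p6, the assembly of mm10, 1-based.

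Alternatives were DESeq2 1.42.0, limma-voom (limma 3.58.1), upper-quartile, DESeq2 or no scaling factors, no filter, a minimum of 1 CPM in 3 libraries, the replicate number as a block, a per-library lowess offset on gene width, and leaving out each library. The genes and lists were chosen with earlier results of these data known. Besides the 10 genes, the up to 4 tested genes with the smallest p in each of 4 lists were named, except 1 that is not reported here; other names are marked.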

Additional observations from a re-analysis of the deposited data

How the results depend on the processing

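Over all genes, calls ranged from 2201 to 2768 higher and 1934 to 2340 lower when 1 library was left out, beside 2866 and 2421. Among the 10 genes, 1 to 6 were then called higher and 0 to 2 lower. With library totals 5 were called higher and 0 lower (edgeR; 0 also at an unadjusted p under 0.05). The number called lower was 2 with DESeq2 size factors, with at least 1 CPM in 3 libraries and after the width adjustment. Pkp2 turned negative with DESeq2 size factors (-0.015), DESeq2 (-0.014), the width adjustment (-0.035) and when DMSO replicate 1 (-0.027), NIBR-LTSi replicate 1 (-0.008) or NIBR-LTSi replicate 2 (-0.028) was left out, with a range of -0.028 to 0.021 over all single libraries left out. Regulators called higher numbered 2 in DESeq2 and 0 to 4 with 1 library left out. The cause of these shifts was not tested. The replicate numbers showed no common pairing of the libraries. Same-numbered libraries had correlations of 0.0482, -0.296 and 0.562 between their deviations from the group means. NIBR-LTSi replicates 1 and 2 correlated best with another number, and NIBR-LTSi replicate 3 with its own. With 3 libraries per group these correlations depend on one another. They therefore cannot tell whether libraries of the same number share a culture or day. With the replicate block, 2687 genes were called higher and 2258 lower, and of the 10 genes 3 higher and 0 lower (2 lower at an unadjusted p under 0.05, edgeR; Pkp3 adjusted p = 0.0561). The log2 fold change of Ctnnd1 went from 0.13 to 0.06 with the width adjustment, that of Dsp from 0.14 to 0.05 and that of Dsg2 from 0.12 to 0.04.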

Other observations

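The spread within groups had a shared shape in 5 of the 10 genes, noticed after their values were seen. Dsp, Dsg2, Cdh1, Cdh17 and Dsc2 were each highest in DMSO replicate 3 among the controls and in NIBR-LTSi replicate 1 among the treated libraries. The share of all tested genes with this order was not counted. Over all tested genes, the deviations of these 2 libraries from their group means had a correlation of -0.553. The order is not particular to junction genes: of the 13 proliferation markers, Mki67 and Top2a had it too, and the others did not. The giant cadherin Fat1, a relative of Drosophila Fat, had the same pattern with a wider range: 192, 191 and 311 CPM with DMSO and 415, 227 and 253 CPM with NIBR-LTSi. Its log2 fold change was 0.36 ± 0.36 (SE; edgeR adjusted p = 0.479, not called). Its coefficient of variation was 29.9% with DMSO and 34.1% with NIBR-LTSi, where the median over all tested genes was 6.12% and 5.28%.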
